A study of Rattus norvegicus with 4 samples.

Results

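The genes described here were 10 genes of the neural crest and of the melanocyte, the pigment cell that shares a crest origin with the Schwann cell. They were chosen by symbol as SOX10-linked genes of that alternative fate, and the rule uses no measured value. Earlier results of these data were, however, known when they were chosen. All 10 were among the 30708 gene symbols listed in the RNA-Seq data of S16 cells. They comprised the transcription factors Mitf, Pax3 and Foxd3, the receptors Ednrb and Kit, the pigment enzymes Tyr, Tyrp1 and Dct, and the melanosome genes Pmel and Mlana. The S16 line was derived from rat Schwann cells and is immortalized, and only unmodified cells are described here. There was 1 population at passage 9, which was also the parent of CRISPR-edited lines not analysed here, and 1 population at passage 39. Both were grown to confluence in standard medium with no treatment, and each gave 2 poly(A) libraries that the labels call technical replicates 1 and 2. Levels are in RPKM, the reads of a gene divided by its length in kilobases and by the library's reads in units of 1000000, which allows genes to be compared. The read totals behind the values were recovered from the values themselves and lay between 34246093 and 41382234. These totals, on which the counting intervals rest, exceed the number of reads per cell line that the paper gives. The reason is not known. The paper also states that technical replicates were pooled and sequenced across 2 lanes. A line kept in culture is a limited model of a nerve, and 1 population per passage leaves passage without a replicate.

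Neural crest cells leave the dorsal neural tube and give rise to Schwann cells, peripheral neurons and melanocytes. SOX10 acts in both the glial and the pigment lineage: together with PAX3 it drives Mitf, whose product MITF turns on the pigment genes, whereas FOXD3 is known to hold Mitf down and to keep crest cells on the glial path. KIT with its ligand (encoded by Kitlg) and the endothelin receptor EDNRB with endothelin 3 guide the survival and migration of melanocyte precursors. TYR, TYRP1 and DCT (dopachrome tautomerase) are related enzymes of melanin synthesis, PMEL forms the fibrils on which melanin is laid down, and MLANA is a melanosome protein used as a melanocyte antigen.

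MITF and its relatives bind E-boxes, above all CATGTG and the palindrome CACGTG. These motifs and the SOX10 monomer in its 4 forms (the form ACAAA, the further form ACACA, the further form ACAAT and the further form ACAAG) were searched on both strands in RefSeq promoter windows of the rat GRCr8 assembly, from 250 bases before to 50 bases after a gene start. The authors counted reads on the older rn5 assembly, and each gene had 1 window, so other starts such as those of Mitf were not searched. CATGTG was found in the windows of Tyr, Tyrp1, Dct and Mlana, 4 of the 10 genes, and in 14.0% of all 33469 windows. It was not found in the window of Pmel, or in those of the other 5 genes. The matches are shown because the flanks of 4 of the 5, all but the Tyr match nearer to the start, were alike. Capitals mark the E-box, each sequence runs 5′ to 3′ on the strand that carries it, and positions count the bases from the first base of the match in the gene's direction to the start:
Tyr, 120 bases before the start, chr1:150622960-150622989, minus strand: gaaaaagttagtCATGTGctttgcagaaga
Tyr, 27 bases before the start, chr1:150622867-150622896, minus strand: tcttagccaagaCATGTGatagtcactgta
Tyrp1, 67 bases before the start, chr5:100327046-100327075, plus strand: tggggaaggagtCATGTGctgactgagtag
Dct, 137 bases before the start, chr15:101508149-101508178, minus strand: tgcacttggggtCATGTGctaacaaagagg
Mlana, 204 bases before the start, chr1:236882859-236882888, minus strand: aagtgtttttgtCATGTGcctaatgtaata

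The Tyr match farther from the start and the Tyrp1 match had a run of 11 bases in common, AGTCATGTGCT, which occurred in 0.0359% of all windows. With Dct the common run was GTCATGTGCT (0.0657% of windows), and with Mlana as well it was GTCATGTGC (0.158% of windows). These runs were read off the matches and were not among the motifs searched at first. The other E-box, CACGTG, was found in 2 of the 10 windows, those of Pax3 and Foxd3, against 6.42% of all windows. The CACGTG matches were:
Pax3, 92 bases before the start, chr9:87112606-87112635, minus strand: tcgcccaatcagCACGTGtcttcgccaccc
Foxd3, 209 bases before the start, chr5:119450311-119450340, plus strand: gtcacgcgcggtCACGTGgccccgcctccc

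At least 1 of the short SOX10 monomers was in 7 of the 10 windows and in 83.5% of all windows, so a match to them told little. The 250 bases before the start are given for Ednrb, which differed most between libraries among the 5 of the 10 genes that reached 1 RPKM, and for Pmel, the highest of the 5 genes of pigment enzymes and melanosome proteins among the 10. Capitals mark the SOX10 monomers on either strand, and neither stretch held an E-box of the kinds searched:
Ednrb, chr15:87086766-87087015, minus strand: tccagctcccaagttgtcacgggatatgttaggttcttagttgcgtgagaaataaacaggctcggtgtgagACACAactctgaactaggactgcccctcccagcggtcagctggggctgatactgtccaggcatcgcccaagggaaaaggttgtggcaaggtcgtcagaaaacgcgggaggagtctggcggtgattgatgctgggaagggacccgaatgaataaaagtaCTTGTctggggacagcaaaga
Pmel, chr7:1722993-1723242, plus strand: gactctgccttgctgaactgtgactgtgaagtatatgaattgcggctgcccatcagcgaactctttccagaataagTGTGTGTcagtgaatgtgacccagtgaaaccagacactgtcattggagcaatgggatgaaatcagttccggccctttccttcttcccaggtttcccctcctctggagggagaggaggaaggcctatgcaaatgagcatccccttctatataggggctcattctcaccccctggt
In the Pmel stretch the capitals hold a pair of overlapping ACACA matches on the opposite strand.

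The 4 libraries grouped by technical replicate number and not by passage. On the log2(RPKM + 1) scale, over the 11025 genes whose mean reached 1 RPKM, 132 and 121 genes differed 2-fold or more between the libraries of passage 9 and of passage 39. Only 1 gene did so between the first libraries of both passages, and 1 between the second libraries. Results are therefore given for every library, by passage and by number. Whether the number marks a batch, or whether the labels of technical replicate 2 of passage 9 and technical replicate 1 of passage 39 were exchanged, cannot be told apart from these files. With exchanged labels, every difference given here by number would be the difference between passages, and every difference given by passage would be one between technical replicates. All values follow the labels as deposited. Each population mean averages 1 first and 1 second library, so an SD over the 2 populations largely leaves out the difference by number. With exchanged labels each such mean would mix both populations. The Schwann cell label fitted most of its markers, since 8 of 9 marker genes reached 1 RPKM, the exception being Gjb1 at 0.113 ± 0.0346 RPKM (SD, n = 2 populations). The same level was reached by 3 of 6 fibroblast markers, among them Col1a1, which ranked 1 of all 30708 listed genes.

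Of the 10 genes, 5 reached a mean of 1 RPKM: Foxd3, Ednrb, Pmel, Pax3 and Mitf. Another 3 had reads in some or all libraries but stayed far under 1 RPKM, namely Tyrp1, Dct and Mlana. Kit and Tyr were listed at 0 in every library. All 3 transcription factors and 1 of the 5 genes of pigment-cell products, Pmel, were thus above the minimum of 1 RPKM. Among all 30708 listed genes, 11025 reached this minimum. The count of 5 of 10 and the counts of the other gene lists are to be read beside that share. Whether any of these counts differed from it was not tested.

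**Figure D1:**
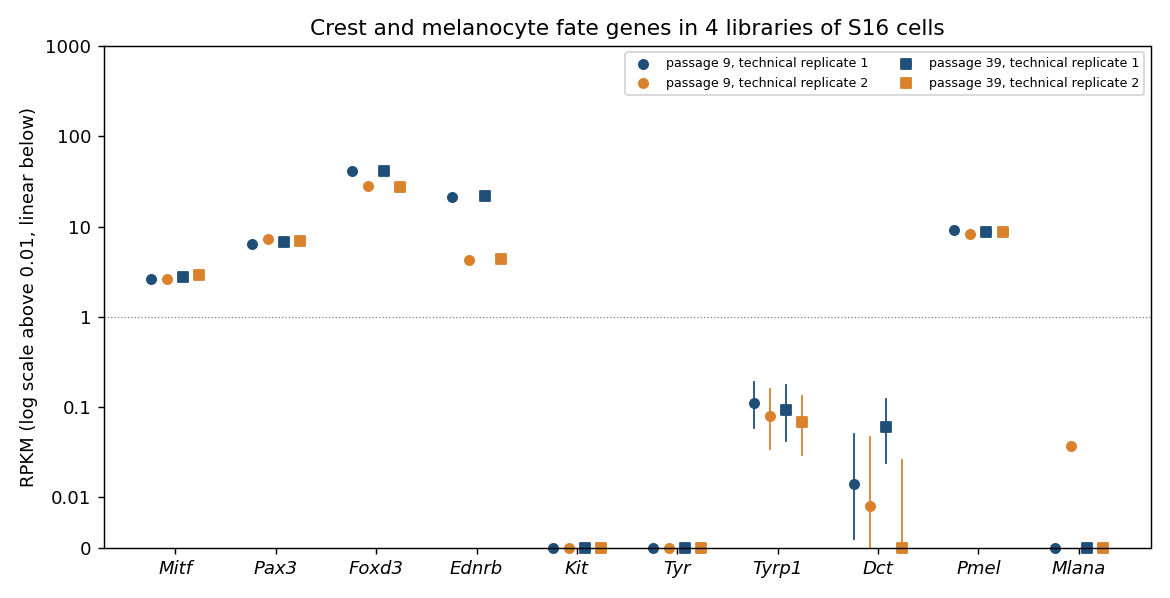
RPKM of the 10 genes (log scale above 0.01, linear below) in the libraries of passage 9 (circles) and passage 39 (squares), with technical replicate 1 in blue and 2 in orange. Vertical lines are exact 95% counting intervals where reads could be recovered, and the dotted line is 1 RPKM. Ednrb and Foxd3 fall into pairs by technical replicate number, whereas Tyr and Kit lie at 0 in all 4 libraries.

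Among the transcription factors, Foxd3 had the highest level. Technical replicates 1 and 2 of passage 9 gave 40.9 and 28.2 RPKM, and those of passage 39 gave 41.2 and 27.4 RPKM. Both first libraries thus lay above both second libraries, and the population mean was 34.4 ± 0.184 RPKM (SD, n = 2), rank 2095 of 30708.

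Pax3, which encodes a paired-box factor of early crest, was at 6.42 and 7.25 RPKM in technical replicates 1 and 2 of passage 9 and at 6.77 and 6.97 RPKM in those of passage 39. The second library was the higher at each passage, and the mean was 6.85 ± 0.0250 RPKM (SD, n = 2).

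Mitf was lower: technical replicates 1 and 2 gave 2.63 and 2.66 RPKM for passage 9, and 2.76 and 2.94 RPKM for passage 39. It rested on 548, 470, 476 and 610 reads in that order, and its mean of 2.75 ± 0.148 RPKM (SD, n = 2) ranked 9458. The table gives 1 value for the gene, so the melanocyte isoform of Mitf and the isoforms from other starts could not be separated. The spread between libraries was smaller for Mitf and Pax3 than for Foxd3, and the 3 levels kept the order Foxd3, Pax3, Mitf in every library.

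Mitf belongs to a family of 4 related factors, and the relatives Tfe3 and Tfeb act in lysosome and autophagy programmes in many cells. Tfe3 was at 13.4 ± 0.203 RPKM and Tfeb at 3.55 ± 0.00799 RPKM (SD, n = 2 for each), while Tfec had reads in a single library. Every library of Tfe3 (12.3 to 14.7 RPKM) lay above every library of Mitf.

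Among the 5 of the 10 genes that reached 1 RPKM, the receptor gene Ednrb varied most between libraries. It stood at 21.2 RPKM (3870 reads, 95% interval 20.5 to 21.8) in technical replicate 1 and at 4.27 RPKM (663 reads, 3.96 to 4.61) in technical replicate 2 of passage 9. At passage 39 it was at 21.7 RPKM (3290 reads, 21.0 to 22.5) and 4.33 RPKM (787 reads, 4.04 to 4.65). The mean over populations, 12.9 ± 0.225 RPKM (SD, n = 2), therefore described neither pair of libraries. The intervals are exact Clopper-Pearson intervals of the recovered reads and cover counting error only.

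Of the endothelins, Edn1 was at 3.49 ± 0.0655 RPKM (SD, n = 2), whereas Edn2 and Edn3, the latter the ligand of EDNRB in crest development, were listed at 0 in every library. Ednra, the other endothelin receptor, had between 2 and 7 reads per library and a mean of 0.0212 ± 0.0125 RPKM. Ece1, which encodes an enzyme that cleaves endothelins to their active form, was at 36.8 ± 0.176 RPKM, and Ece2 at 1.79 ± 0.107 RPKM (SD, n = 2).

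Kit was listed at 0 in all 4 libraries, while its ligand gene Kitlg was among the higher genes of the table. Kitlg was at 38.1 and 26.2 RPKM in technical replicates 1 and 2 of passage 9 and at 38.4 and 27.4 RPKM in those of passage 39, with a mean of 32.5 ± 0.544 RPKM (SD, n = 2). As with Foxd3, the first libraries were the higher pair. A count of 0 allows up to 3 reads, or between 0.0725 and 0.0876 reads per 1000000 reads in these libraries, and no RPKM limit can be given for Kit because its length could not be recovered. A listed 0 was read with caution, since 1 of 73 ribosomal protein genes was also at 0 in every library.

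**Figure D2:**
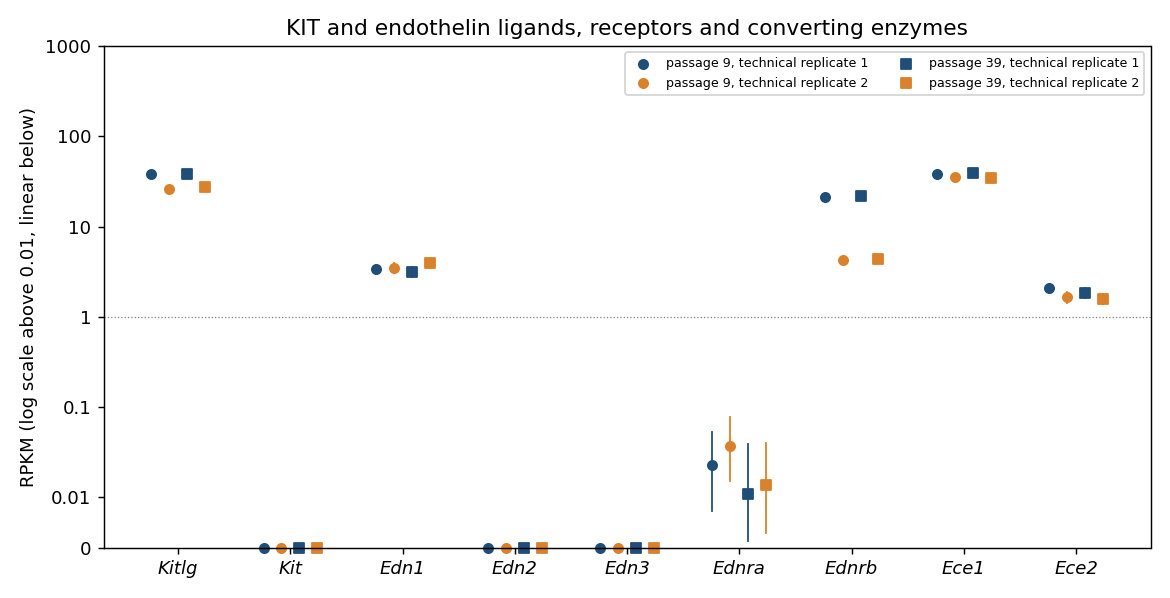
RPKM (log scale above 0.01, linear below) of the KIT and endothelin ligands, receptors and converting enzymes in the 4 libraries, with symbols, colours, intervals and dotted line as in the plot of the 10 genes. Kitlg stands at 26.2 to 38.4 RPKM over a Kit at 0. Ednrb stands at 4.27 to 21.7 RPKM beside an Edn3 at 0 and an Edn1 at 3.15 to 3.91 RPKM.

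The genes of the pigment cell itself split into Pmel and the rest. Pmel was at 9.18 and 8.23 RPKM in technical replicates 1 and 2 of passage 9 and at 8.79 and 8.67 RPKM in those of passage 39. With 814 to 1071 reads per library the 4 values lay close together, and the mean of 8.72 ± 0.0192 RPKM (SD, n = 2) was above that of 79.3% of the listed genes.

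Tyrp1 was detected in each library, but at 0.110, 0.0798, 0.0921 and 0.0682 RPKM in the order passage 9 and then passage 39. These values rested on 13, 8, 9 and 8 reads, and all 4 counting intervals overlapped, the first being 0.0586 to 0.188 RPKM and the last 0.0294 to 0.134 RPKM. Dct had 2, 1, 7 and 0 reads, which gave 0.0141, 0.00833, 0.0598 and 0 RPKM. In 3 of the 4 libraries Dct was thus at or under the limit of 3 reads that a count of 0 allows, which was 0.0212 to 0.0256 RPKM for this gene.

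Mlana was above 0 only in technical replicate 2 of passage 9, at 0.0373 RPKM, for which the smallest whole number of reads is 1. Tyr, the enzyme of the first step of melanin synthesis, was listed at 0 in every library. The 4 genes with CATGTG in the window shown above, Tyr, Tyrp1, Dct and Mlana, were at or under 0.110 RPKM in every library. Kit, whose window held no CATGTG, was at 0 as well, and Pmel, whose window also held none, was at 8.23 RPKM or more.

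In order of their means, the 10 genes ran Foxd3, Ednrb, Pmel, Pax3, Mitf, Tyrp1, Dct and Mlana, followed by Kit and Tyr at 0. In every library Foxd3 was above Ednrb, Pmel above Pax3, Pax3 above Mitf, and Mitf above Tyrp1. The counting intervals of these pairs were apart except for Pmel and Pax3 in technical replicate 2 of passage 9. There they were 7.67 to 8.81 RPKM for Pmel and 6.79 to 7.72 RPKM for Pax3. The place of Ednrb depended on the libraries: it was above Pmel in both first libraries and under both Pmel and Pax3 in both second libraries. Tyrp1 was above Dct in every library, with counting intervals apart in technical replicate 1 of passage 9 and technical replicate 2 of passage 39 and overlapping in the other libraries. Dct and Mlana could not be ordered with so few reads.

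Other genes of pigment cells gave a mixed picture. Of 9 further genes taken as largely restricted to melanocytes, 8 were listed and 3 reached 1 RPKM. These were Rab38 (52.4 ± 0.771 RPKM), Gpnmb (46.7 ± 1.15 RPKM) and Trpm1 (1.77 ± 0.0541 RPKM; SD, n = 2 for each). RAB38 carries pigment enzymes to melanosomes but also serves other lysosome-related organelles, and GPNMB is a PMEL relative found in macrophages and other cells too. Slc45a2, which encodes a melanosome transporter, was listed at 0 in every library. The remaining 4 listed genes were at or under 0.333 RPKM in every library.

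In contrast, of 11 genes of organelle machinery that melanosomes share with other lysosome-related organelles, 10 reached 1 RPKM. The highest were Hps5, at 22.1 ± 0.0652 RPKM, and Ap3b1, at 17.9 ± 0.112 RPKM, which act in the biogenesis of such organelles. Rab32 followed at 16.3 ± 0.681 RPKM (SD, n = 2 for each). Single libraries of Hps5 ranged from 17.3 to 26.8 RPKM.

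Among 20 crest regulators, 19 were listed, 11 reached 1 RPKM and 3 (Twist1, Zic1 and Pax7) were at 0 in every library. Ngfr, the neurotrophin receptor of crest and immature Schwann cells, was at 283 ± 3.68 RPKM, Sox10 at 176 ± 3.75 RPKM, and Lmo4 at 69.1 ± 0.661 RPKM (SD, n = 2 for each). Pax3 was thus present where its paralogue Pax7 was listed at 0.

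All 7 SOX10-linked Schwann cell genes were listed and 6 reached 1 RPKM. The gene of a peripheral myelin protein, Pmp22, headed the list at 1255 ± 5.46 RPKM. The neuregulin receptor Erbb3 followed at 89.2 ± 0.0154 RPKM, and Mag, which encodes a myelin-associated glycoprotein, at 69.4 ± 0.146 RPKM (SD, n = 2 for each). Single libraries ranged from 74.6 to 104 RPKM for Erbb3 and from 60.2 to 78.4 RPKM for Mag. None of the 11 genes of crest-derived neurons reached 1 RPKM, and the highest of them were Pou4f1, Hand2 and Dbh, at 0.326, 0.259 and 0.0653 RPKM, while Neurog1 was listed at 0.

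**Figure D3:**
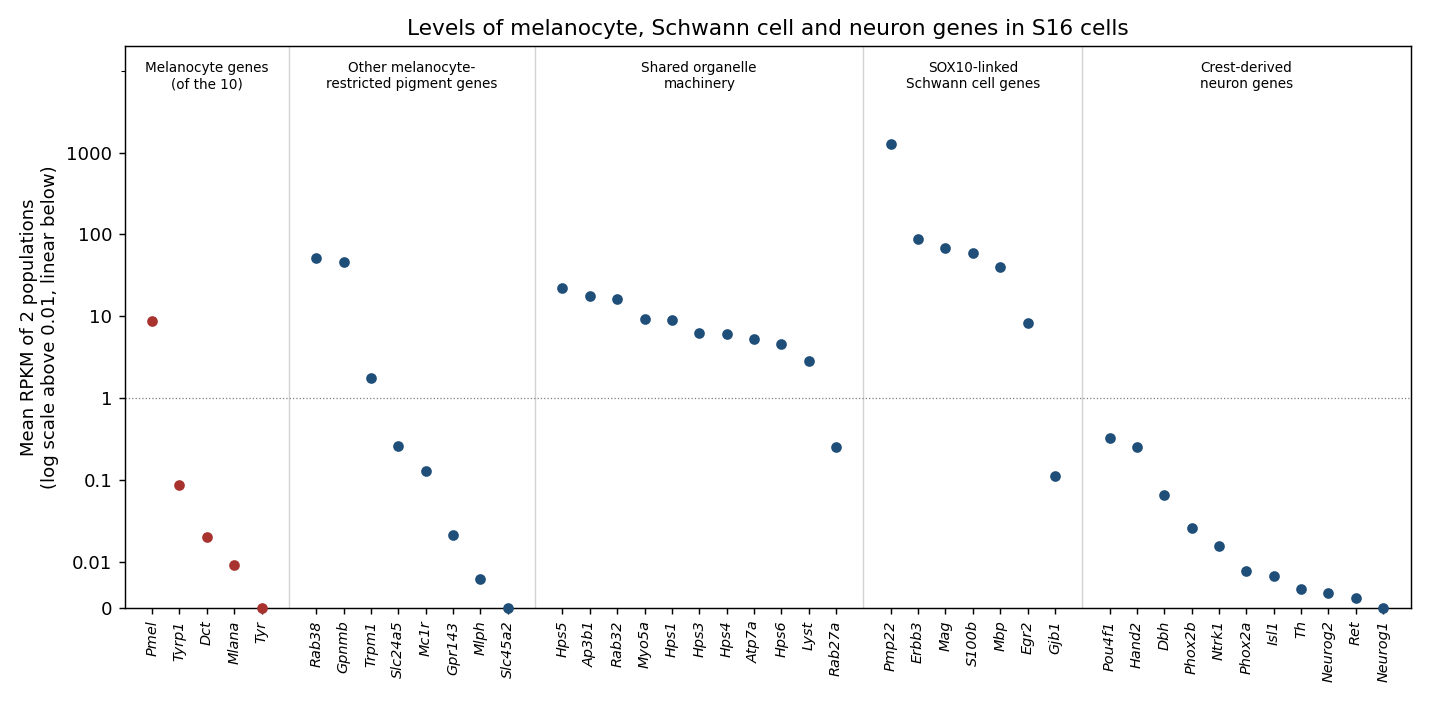
Mean RPKM of 2 populations (log scale above 0.01, linear below) for each listed gene of 5 groups, sorted within a group, with the 5 melanocyte genes of the 10 in red and other genes in blue. Pmel is the only red point above the dotted line at 1 RPKM, against 6 of 7 Schwann cell genes and 0 of 11 neuron genes.

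Markers of other cells that could carry Kit, Ednrb or Kitlg were mostly at or near 0. Of 4 mast cell markers, 3 (Cpa3, Tpsb2 and Fcer1a) were at 0 in every library, and the summed level of all 4 was at most 0.0104 RPKM. Of 3 endothelial markers, Cdh5 and Kdr were at 0 throughout, and the sum was at most 0.0227 RPKM. The 4 macrophage markers summed to between 1.48 and 1.62 RPKM, most of it Cd68, with Ptprc at 0.

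Fibroblast and neuron lists were less clear. Col1a1 and Col3a1 made up most of the sum of 6 fibroblast markers, which was 3432 to 3446 RPKM in the first and 3826 to 3934 RPKM in the second libraries, although Dcn had reads in 1 library only. Of the 6 markers 3 reached 1 RPKM, while Col1a2 was at 0.339 ± 0.00627 RPKM and Lum at 0.0534 ± 0.0161 RPKM (SD, n = 2 for each). Schwann cells make collagens as well. The 4 neuron markers summed to between 112 and 116 RPKM in the first and 72.7 and 74.6 RPKM in the second libraries. Nearly all of this was Nefl, while Elavl4 was at 0 and Snap25 and Rbfox3 had reads in 1 library each. The part of these cells in the values of the 10 genes was not tested. In bulk RNA, fewer cells with a transcript and less of it per cell cannot be told apart.

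The question of passage was whether a longer time in culture went with other levels of these genes. None of the 5 genes of at least 1 RPKM differed 2-fold between passage 39 and passage 9, and over all 11025 genes tested 1 did (0.00907%). The log2(RPKM + 1) differences, passage 39 minus passage 9, were 0.080 for Mitf, 0.027 for Ednrb, 0.0084 for Pax3, 0.0057 for Pmel and -0.015 for Foxd3, beside a median of -0.0018 over all genes tested. With 1 population per passage these differences have no test. They rest on the passage labels: were the pair of labels named above exchanged, the passage difference would be the one given by number, in which Ednrb was at 21.4 and 4.30 RPKM.

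Mitf was the 1 gene of the 5 whose libraries did not overlap between passages, and the libraries of 6.21% of all genes tested did not overlap. Its recovered reads per total were 1.05-fold higher at passage 39 between the first libraries (95% interval 0.926 to 1.19) and 1.11-fold higher between the second (0.981 to 1.25). Both intervals included 1, so the difference was within counting error. For Ednrb the ratios of passage 39 to passage 9 were 1.03 (0.980 to 1.08) and 1.01 (0.913 to 1.13), and for Foxd3 they were 1.01 (0.951 to 1.07) and 0.971 (0.906 to 1.04). Tyrp1 gave 0.837 (0.316 to 2.12) and 0.854 (0.279 to 2.61), intervals too wide to exclude a doubling.

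When 1 library was left out, Ednrb exceeded the 2-fold threshold between passages in all 4 cases. The passages then held unequal mixes of first and second libraries, as is the case by construction.

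By technical replicate number, 2 of the 5 genes differed, Ednrb and Foxd3, and both were lower in the second libraries. The difference of log2(RPKM + 1), second minus first, was fitted with limma with the population as a block, so that, with the labels as deposited, its replicates were the 2 populations. With exchanged labels the test would set 1 population against the other, and its p-values would measure technical spread only. With this test 24.4% of all genes were called lower and 49.7% higher in the second libraries, 74.1% in all, at an adjusted p under 0.05. A call by itself was therefore nothing particular to the 5 genes. An exact permutation of 2 libraries against 2 could not have gone below p = 0.333.

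Ednrb fell from a mean of 21.4 RPKM in the first libraries to 4.30 RPKM in the second, or 4.98-fold in RPKM. On the log2(RPKM + 1) scale, which understates changes of low values, its difference was -2.08 (SE 0.0375, limma adjusted p = 1.03e-08), with -2.07 at passage 9 and -2.09 at passage 39. This was the sixth lowest of all differences (rank 6 of 11025). A 2-fold fall on this scale was met by 1 of the 5 genes, Ednrb, and by 0.726% of all genes. The second library held 0.202 times the reads per total of the first at passage 9 (95% interval 0.186 to 0.219) and 0.199 times at passage 39 (0.184 to 0.216).

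Foxd3 fell from 41.0 to 27.8 RPKM, or 1.48-fold. Its log2(RPKM + 1) difference was -0.55 (SE 0.0270, limma adjusted p = 9.66e-07), with -0.52 and -0.57 at passage 9 and passage 39. It ranked 409 from the lowest, so many genes fell more.

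Mitf, Pax3 and Pmel were not called by this test. Mitf was at 0.041 (95% interval -0.090 to 0.173, limma adjusted p = 0.530), Pax3 at 0.095 (-0.014 to 0.203, adjusted p = 0.0996) and Pmel at -0.080 (-0.184 to 0.023, adjusted p = 0.137), as differences of log2(RPKM + 1). The intervals show that none of the 3 differed 2-fold, but a small difference was not excluded. The whole table shifted, since the median over all genes was 0.10, and relative to that median the 5 differences were -2.19 for Ednrb, -0.65 for Foxd3, -0.18 for Pmel, -0.063 for Mitf and -0.0092 for Pax3.

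This shift depended on the scaling. With each library rescaled to a common sum the median was -0.032 and the calls were 3435 higher and 4546 lower, against 5483 higher and 2687 lower as deposited, and with median-ratio scaling they were 4105 higher and 3549 lower. Ednrb and Foxd3 were called lower under both scalings. Pmel was also called lower then, at -0.23 (limma adjusted p = 0.00528) and -0.16 (limma adjusted p = 0.0166). Its adjusted p lay between 0.00528 and 0.434 over 11 alternatives.

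The difference between the pairs of libraries also varied with gene length. The 500 tested genes nearest in length to Ednrb, whose recovered length was 4420 bp, had a median difference of 0.0090, so Ednrb was at -2.09 relative to them. The genes nearest to Foxd3 (1546 bp) had a median of 0.22, and Foxd3 was at -0.77 relative to them. This comparison was added after the values had been seen.

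**Figure D4:**
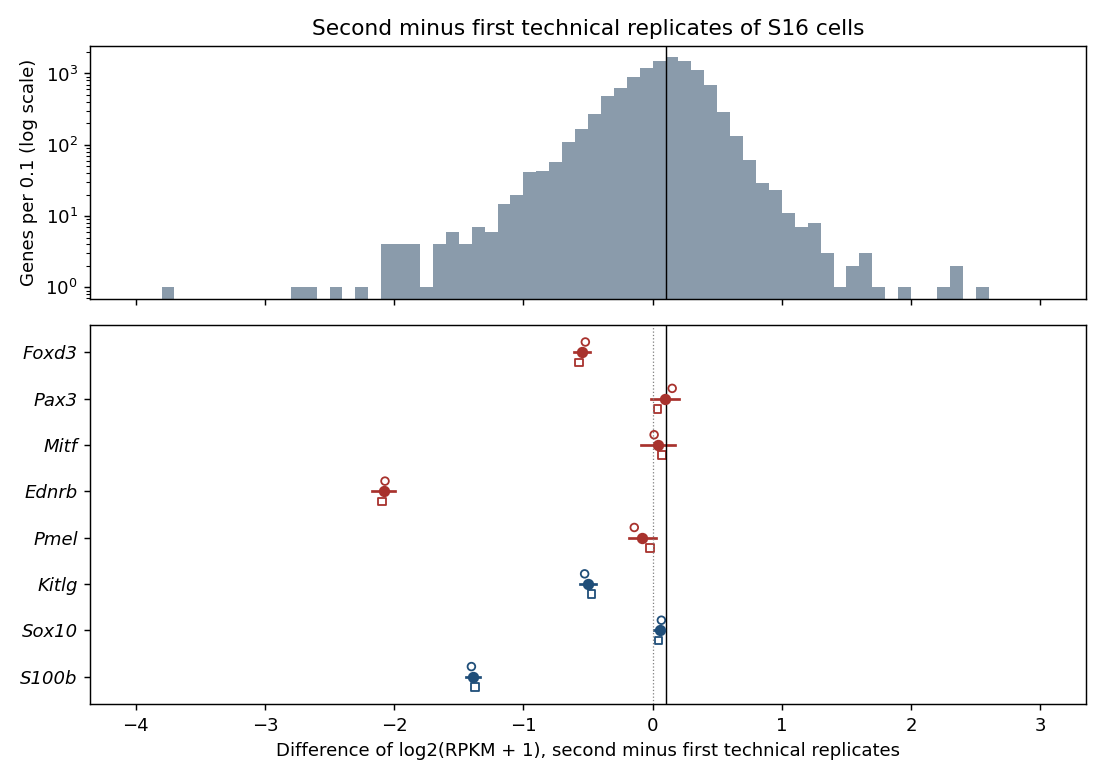
Difference of log2(RPKM + 1), second minus first technical replicates, for all 11025 genes tested (upper panel, genes per bin of 0.1, log scale) and for named genes (lower panel, the 10-gene set in red, others in blue). Filled points with lines are limma estimates with 95% intervals, open circles and squares are passages 9 and 39, and the black line is the median of all genes, 0.10. Ednrb lies at -2.08, beyond S100b, while Mitf, Pax3 and Pmel lie near 0.

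The low genes could not be compared in this way. The reads of Tyrp1 per total in the second libraries were 0.726 times those of the first at passage 9 (95% interval 0.261 to 1.89) and 0.741 times at passage 39 (0.249 to 2.16), and no difference was detectable at this depth. Dct had 2 reads in the first and 1 read in the second library of passage 9, a ratio of 0.590 (0.00999 to 11.3). At passage 39 it had 7 and 0 reads, a ratio of 0 with an interval up to 0.578, which did not include 1. The wider interval at passage 9 included 1.

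Genes around the 10 shifted with the number too, as counts of calls beside 24.4% lower and 49.7% higher among all genes. Kitlg was 1.43-fold higher in the first libraries, with a difference of log2(RPKM + 1) of -0.50 (SE 0.0275, limma adjusted p = 1.63e-06). Of the 4 tested genes of the list of ligands, the related receptor and converting enzymes, 3 were called lower and 0 higher in the second libraries, with Edn1 at 0.14 (limma adjusted p = 0.0764). Of the 2 tested relatives of Mitf, both were called higher, Tfeb at 0.45 (limma adjusted p = 0.000105) and Tfe3 at 0.19 (limma adjusted p = 0.00219). With libraries rescaled to a common sum Tfe3 was no longer called.

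Among the further melanocyte-restricted genes, Rab38 and Gpnmb were called lower, at -0.30 (limma adjusted p = 2.27e-05) and -0.17 (limma adjusted p = 0.000247), and Trpm1 was at -0.054 (limma adjusted p = 0.452). Of the 10 tested genes of shared organelle machinery, 6 were called lower and 3 higher (6 and 1 under each of the other scalings), and their median was -0.21. The 11 tested crest regulators split into 4 called lower and 4 higher, with a median of -0.026, but into 8 lower and 2 higher after rescaling to a common sum and 5 lower and 2 higher with median-ratio scaling. Sox10 itself was at 0.056 (limma adjusted p = 0.0255) as deposited and at -0.090 (limma adjusted p = 0.00377) after rescaling to a common sum, so its direction was set by the scaling. Snai2, a crest regulator at 62.5 RPKM that was named after its values had been seen, was at 0.027 (limma adjusted p = 0.391).

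In the Schwann cell list 4 of 6 tested genes were called lower and 2 higher, with a median of -0.41 beside 0.10 for all genes. After rescaling to a common sum 5 were called lower and 1 higher, and with median-ratio scaling 4 and 1. S100b and Egr2 were named after their values had been seen. S100b, which encodes a calcium-binding protein of glia, was at -1.39 (limma adjusted p = 7.81e-09). Egr2, a regulator of myelination, was higher in the second libraries, at 0.73 (limma adjusted p = 1.54e-06). Ednrb thus lay lower than each of the 6 tested genes of the Schwann cell list, while Foxd3 lay below Erbb3, at -0.44, and above S100b. The first and second libraries also differed in fibroblast and neuron markers, as given above.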

How the data were processed

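Per the labels and the paper's methods, poly(A) TruSeq libraries were sequenced as 50-bp single-end reads, aligned to rat rn5 with STAR (uniquely mapped reads only) and assigned to genes by HTSeq in its unstranded mode, so antisense transcripts could not be separated. The tool versions are not given in the sources used here. The authors deposited 1 RPKM value per gene symbol and library, with no counts, and these were used as deposited. Whole reads, gene lengths and totals were recovered from ratios of the RPKM values for 18113 of the 18114 genes that had values above 0 in 2 or more libraries. Each recovered read number is the smallest possible, and the recovery and the limma test were tested on simulated data. A mean ± SD (n = 2) is taken over the populations, each represented by the mean RPKM of its libraries.

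The difference between technical replicate numbers was tested with limma 3.58.1 (R 4.3.3; Python 3.11.15, numpy 2.4.6, scipy 1.17.1) on log2(RPKM + 1) over genes whose mean reached 1 RPKM, with a mean-variance trend, the population as a block and Benjamini-Hochberg adjustment over all genes tested. Its p-values rest largely on a variance that limma borrows across all genes tested. If the labels are right, they rest only in small part on how far the number difference varied between the 2 populations. Without the mean-variance trend the limma adjusted p was 0.000215 for Ednrb and 0.000904 for Foxd3. Passage had no test. Alternatives were 2 scalings, a pseudocount of 0.1 RPKM, other minimums, no block, no trend and each library left out. A library left out, fitted without a block, and the correction for length were added after seeing the data. Some genes of the lists are not reported here and were left out of the counts. The 10 genes and the lists were chosen with earlier results of these data known. Named genes were the 10, and of each list the 3 highest and those at 0 in every library; others are said to be chosen later or are the remaining markers and ligand genes. Intervals of levels are exact Clopper-Pearson intervals at 95%, and those of read ratios come from the same interval of 1 library's share of both libraries' reads, so both cover counting error only.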

Additional observations from a re-analysis of the deposited data

Results flagged for a closer look

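A gene was singled out where 1 of the 4 libraries lay far from the other 3, measured as the gap to its nearest neighbour over the whole range. This held for 13 of 81 genes of the lists with values that varied, whereas chance picks out about 1 in 20 groups of continuous values, which is 4.05 of these genes. The ratio was 1 for Mlana, Dcn, Hdc, Isl1, Msx2, Neurog2, Pecam1, Phox2a, Rbfox3, Snap25, Tfec and Th. These 12 genes had reads in 1 library only, which gives a ratio of 1 by construction. It was 0.853 for Sox9, at 0.368 RPKM in technical replicate 2 of passage 9 and between 0.271 and 0.285 RPKM in the others. Mlana was the only one of the 10 genes among them.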

How the results depend on the processing

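The number of the 10 genes at 1 RPKM or more was 5 under both scalings and with each library left out. The number called between technical replicate numbers was 2, and 3 with either scaling, which added Pmel; Ednrb and Foxd3 were called in 11 of 11 alternatives, with differences of log2(RPKM + 1) from -2.37 to -2.06 and from -0.77 to -0.53, values relative to genes of similar length included. The number 2-fold apart between passages was 0 and became 1 (Ednrb, range 1 to 1) with each library left out. A replicate block, which takes the passage difference within each technical replicate number, left that number at 0 and the count over all genes at 1, since the balanced means are the same. Over all genes, the 1 gene 2-fold apart between passages became 4 after libraries were scaled to a common sum, also 4 when the pseudocount was 0.1 RPKM, and 13 to 17 with a library left out. The 121 genes 2-fold apart between numbers, of 11025 tested, became 328 of 12406 after rescaling and 253 of 11025 with a pseudocount of 0.1 RPKM. The 685 genes whose libraries did not overlap between passages, of 11025 tested, became 1095 of 12406 after rescaling. They became 1233 of 14008 with a minimum of 0.1 RPKM and 2376 of 20333 with no minimum. The cause of these changes was not tested. Few reads limit Tyrp1, Dct and Mlana, and the replicate number cannot be told apart from a batch or from exchanged labels.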
